A study of Mus musculus with 12 samples.

Results

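The immediate-early genes followed here numbered 10, of 38924 in the count tables: the AP-1 subunit genes Fos, Fosb, Jun, Junb and Jund, the related factor gene Atf3, the zinc finger factor genes Egr1 and Egr2, and the immediate-early response genes Ier2 and Ier3. They were taken from a list of immediate-early genes that serves as a readout of the response of cells to dissociation, and were matched to the tables by Ensembl identifier. All 10 were measured in all 12 libraries, and all 10 were among the 16953 genes that passed the filter on low counts.

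Immediate-early genes are transcribed within minutes of a stimulus without the need for new protein, through factors that already sit at their promoters. Fos proteins pair with Jun proteins to form AP-1, Egr factors bind GC-rich sites, and feedback regulators such as Zfp36 and Nfkbia shorten the response. Digestion of tissue into single cells and the sorting that follows are themselves such a stimulus, so these genes are commonly used to judge how much a cell suspension has reacted to its preparation.

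The libraries came from C57BL/6 mice that carried the ROSAmTmG reporter with either Myf5-Cre or Ucp1-iCre. In such mice a membrane reporter turns to GFP in cells in which the recombinase has acted and in their descendants, so GFP records past as well as present activity of the Myf5 or Ucp1 promoter. Mammary myoepithelial cells (the contractile basal cells of the gland, sorted as lineage-negative, CD24-positive and CD29-high) were taken from females at day 10 of lactation. The mammary sort gave 4 groups, GFP-positive and GFP-negative cells of the Myf5-Cre line and of the Ucp1-iCre line. GFP-positive brown adipocytes came from 8-week-old virgin females of each line. Each of the 6 groups held 2 libraries. The labels do not say that the replicates came from separate animals, so every p-value measures only the spread between these samples, and tissue, age and lactation state cannot be told apart.

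Library totals ran from 11027738 to 32956480 counts. Levels are given as CPM, read counts brought to a common library size with TMM factors, which correct each library for its composition. The myoepithelial keratins Krt5 and Krt14 were at 0 in all 4 brown fat libraries. In GFP-negative mammary libraries Krt5 stood at 179 to 657 CPM and Krt14 at 493 to 831 CPM. Ucp1 GFP-positive mammary libraries held 71.1 and 107 CPM of Krt5 and 56.1 and 162 CPM of Krt14, and Myf5 GFP-positive ones only 10.03 and 31.6 CPM of Krt5 and 3.99 and 54.4 CPM of Krt14. Between GFP-positive and GFP-negative cells of the Myf5 line, 9 of 10 myoepithelial markers were lower and 8 of 8 fibroblast markers higher with no overlap, where 20.2% and 14.5% of all genes were. By edgeR, however, 0 of either list passed the test. At an unadjusted p under 0.05 there were 4 and 5 of them, and 1573 of all 16953 genes. The 8 fibroblast markers together held 19230 and 11808 CPM in Myf5 GFP-positive libraries against 895 and 561 CPM in Myf5 GFP-negative ones. In the Ucp1 line 10 of 10 myoepithelial markers were lower in GFP-positive cells with no overlap, as were 48.1% of all genes. The edgeR test called 2 of them lower, where 14% of all genes were. The 10 markers together held 1554 and 3386 CPM in Ucp1 GFP-positive and 3352 and 5060 CPM in Myf5 GFP-positive libraries. GFP-negative mammary libraries held 9725 to 18666 CPM. Acta2, also a myoepithelial marker, stood at 1578 and 1547 CPM in Myf5 GFP-positive and 145 and 1384 CPM in Ucp1 GFP-positive libraries. GFP-negative mammary libraries held 3597 to 5610 CPM of it. In those GFP-negative libraries 9 luminal and milk markers together held 48872 to 93827 CPM, more than the myoepithelial markers. The summed myoepithelial markers were thus lower in both GFP-positive mammary groups, and no mammary group held markers of its label alone. The sorted groups are called mammary cells from here on. Ucp1, the uncoupling protein that defines brown fat, was at 0 in the 4 GFP-positive mammary libraries. It stood at 12573 and 16436 CPM in Myf5 brown fat and at 950 and 3312 CPM in Ucp1 brown fat. The mammary libraries also held 771 to 6777 CPM of 6 endothelial markers in all. In bulk samples such as these, fewer cells of a type and less RNA per cell cannot be told apart.

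Some features of the libraries touch the results. The Ucp1 GFP-positive mammary libraries held only 10909 and 10560 genes with a count, and their log2 levels correlated at r = 0.593 across 9022 genes, against 0.782 to 0.981 in the other 5 groups. In both Myf5 mammary groups, replicate 1 was low in GC-rich genes, as described below for Jund. Genes that lie at least 90% within the exons of an opposite-strand gene of 50 CPM or more were counted differently in the 2 tissues. Of 34 to 45 such genes per mammary library, 79.5% to 94.1% had no count, and together they held 0.0134% to 0.285% of their partners' counts. Of 37 to 50 per brown fat library, only 10.0% to 24.3% had no count, and together they held 32.6% to 48.8% of their partners' counts. The cDNA kit named in the protocols does not mark strand, the strand setting of the counting is not given in the sources used here, and this difference in counting cannot be told apart from tissue. Of the 10 genes, 7 (Fos, Fosb, Egr1, Egr2, Atf3, Ier2 and Ier3) share no exonic base with an opposite-strand gene, whereas Jund, Jun and Junb do.

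Fos, the main inducible partner of the Jun proteins, was among the most abundant messages of the mammary gland sort. The gene lies on the plus strand of mm10 at chr12:85473890-85477273 in 4 merged exons. Merged exons, here and below, are the blocks left when the exons of all annotated transcripts of a gene are joined. A single transcript can hold more or fewer exons. The 250 bases before its RefSeq start (GRCm38.p6, chr12:85473640-85473889) are shown because they hold, in capitals, the core of the cAMP response element (TGACG, searched on both strands) at -129 and -66 and a TATA box (TATAAA) at -33. Egr2 is shown beside it because this window (chr10:67537619-67537868, plus strand, 1 of 5 for Egr2, some of which overlap) holds a CArG box, the site read by serum response factor, at -72. The cyclic AMP core lies on either side of that box, at -111 and, on the other strand, at -55.
Fos: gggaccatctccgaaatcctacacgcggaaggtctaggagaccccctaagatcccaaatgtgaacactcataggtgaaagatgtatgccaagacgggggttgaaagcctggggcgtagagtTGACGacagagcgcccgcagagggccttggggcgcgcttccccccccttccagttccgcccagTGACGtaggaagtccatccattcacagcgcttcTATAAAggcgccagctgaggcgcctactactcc
Egr2: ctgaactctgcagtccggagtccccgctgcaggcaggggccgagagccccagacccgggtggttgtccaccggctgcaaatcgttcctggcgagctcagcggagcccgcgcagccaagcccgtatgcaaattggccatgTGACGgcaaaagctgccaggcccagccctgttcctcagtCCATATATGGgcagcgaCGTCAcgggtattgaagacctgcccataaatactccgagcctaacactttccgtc
Among 32851 RefSeq windows of the same length, 17.8% held TGACG on either strand, 12.4% held TATAAA and 1.47% held a CArG box. Windows were found for 8 of the 10 genes. Fosb, Junb and Atf3 each held 1 TGACG core, and none of these 3 letter patterns was in the windows of Jun, Jund and Ier3. The Jund window (chr8:70697489-70697738) ends well before the start of the gene as annotated here (70698949). The bases next to that start were not searched. A match describes the letters only.

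**Figure D1:**
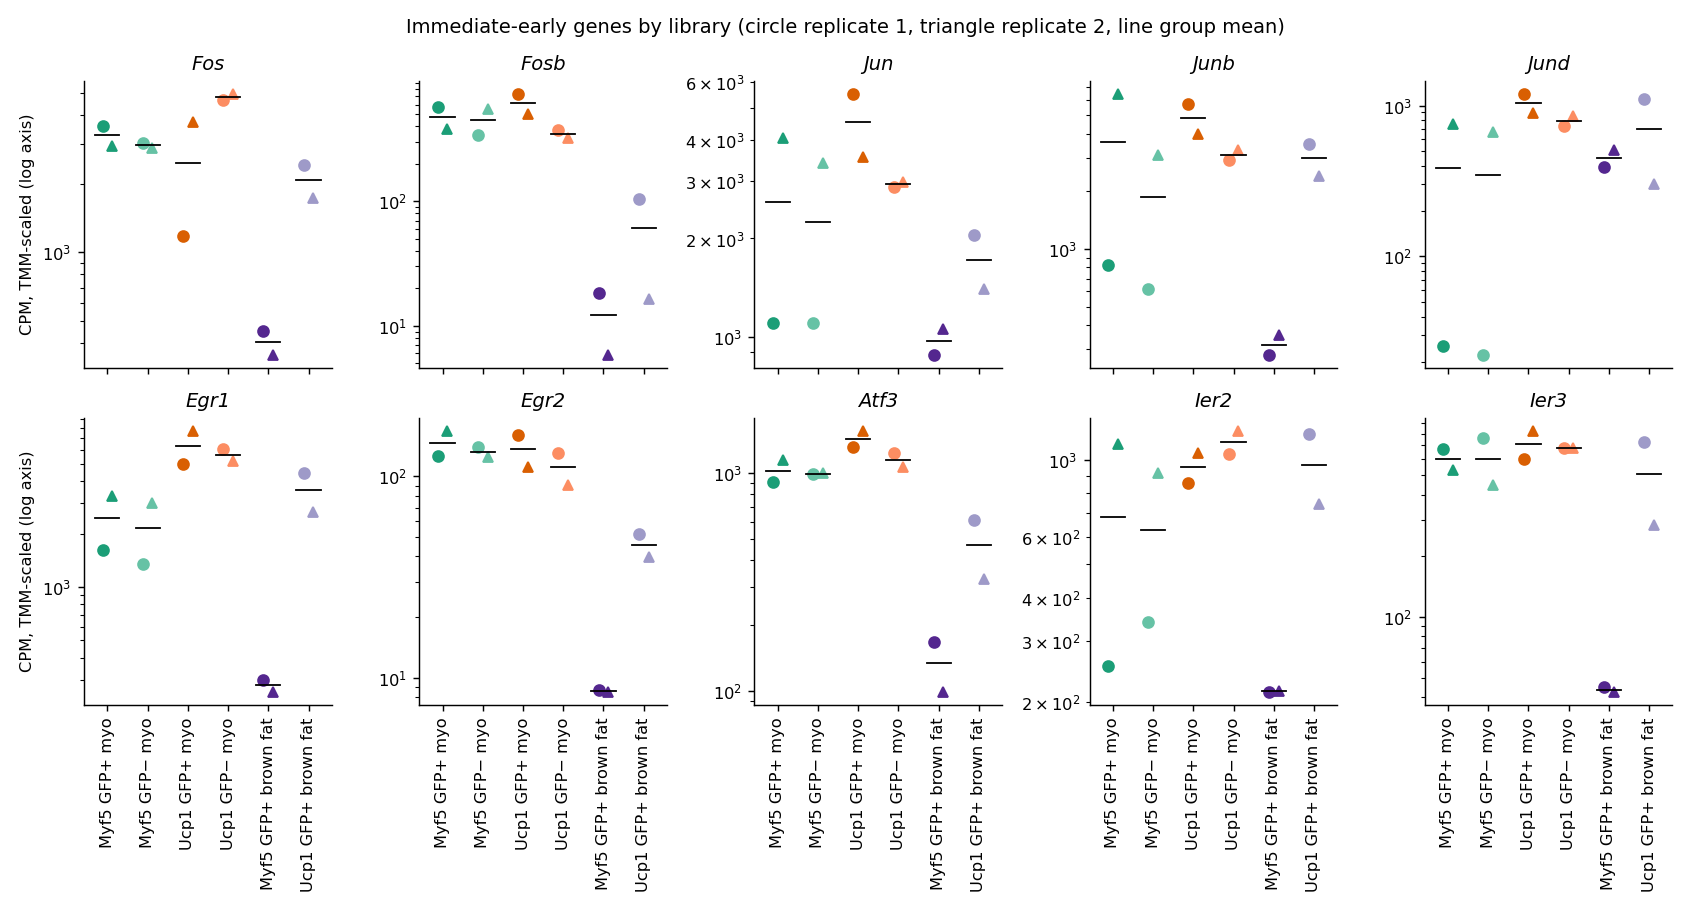
Level of each of the 10 genes in every library, in TMM-scaled CPM on a log axis with its own range per gene; circles are replicate 1, triangles replicate 2 and black lines group means, with colours for the 6 groups. Myf5 brown fat is the lowest group for 9 of the 10 genes, and replicate 1 of both Myf5 mammary groups lies far below replicate 2 for Jun, Junb, Jund and Ier2.

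In the Myf5 line Fos stood at 3591 and 2935 CPM in GFP-positive mammary cells and at 3026 and 2883 CPM in GFP-negative ones. In the Ucp1 line it stood at 1184 and 3725 CPM in GFP-positive cells and at 4674 and 4952 CPM in GFP-negative ones. Brown fat of the Myf5 line held 450 and 355 CPM, and brown fat of the Ucp1 line 2414 and 1737 CPM. Fos therefore ranked between 10 and 74 among all genes by CPM in the mammary libraries, 32 and 63 in Ucp1 brown fat, and 375 and 474 in Myf5 brown fat. The Ucp1 GFP-negative group stood apart above the next group, and Myf5 brown fat stood apart below, while the 4 groups between them overlapped with their neighbours in the order.

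Fosb (chr7:19302696-19310051, minus strand, 2 merged exons), a Fos paralogue whose truncated form is known for its stability, was the least even of the 10 genes. Its level ran from 325 to 728 CPM over the 8 mammary libraries. It was 18.4 and 5.86 CPM in Myf5 brown fat and 105 and 16.3 CPM in Ucp1 brown fat. The highest library exceeded the lowest 124-fold, and no brown fat library reached the mammary range.

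Among the Jun genes, Jun itself (chr4:95049034-95052222, minus strand, 1 exon), the strongest activator of the family, stood at 1105 and 4066 CPM in Myf5 GFP-positive cells and at 1102 and 3397 CPM in Myf5 GFP-negative cells. Ucp1 GFP-positive cells held 5519 and 3540 CPM and Ucp1 GFP-negative cells 2876 and 2977 CPM. Brown fat held 883 and 1058 CPM in the Myf5 line and 2043 and 1399 CPM in the Ucp1 line. Only in the Ucp1 line did both mammary libraries of a group exceed every brown fat library: the low Jun values among mammary cells were the 2 Myf5 replicate 1 libraries.

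Junb (chr8:84974484-84978718, minus strand, 3 merged exons), a weaker activator that can antagonise Jun, followed the same outline with wider gaps. Myf5 GFP-positive cells held 826 and 6443 CPM, and Myf5 GFP-negative cells 621 and 3110 CPM. Ucp1 GFP-positive cells held 5716 and 3993 CPM, and Ucp1 GFP-negative cells 2911 and 3295 CPM. Myf5 brown fat held 280 and 353 CPM against 3537 and 2411 CPM in Ucp1 brown fat, which lay within the mammary range.

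Jund (chr8:70698949-70700616, plus strand, 1 exon), the Jun gene usually held at a steady level rather than induced, gave the most divided values. It stood at 25.5 and 750 CPM in Myf5 GFP-positive cells and at 22.3 and 672 CPM in Myf5 GFP-negative cells. It stood at 1191 and 891 CPM in Ucp1 GFP-positive cells and at 734 and 855 CPM in Ucp1 GFP-negative cells. Brown fat held 390 and 505 CPM in the Myf5 line and 1099 and 302 CPM in the Ucp1 line. Replicate 1 of each Myf5 mammary group thus had a small fraction of the level of replicate 2, and Jund ranked 5128 and 5447 by CPM there against 72 to 153 in the other 6 mammary libraries.

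The split of Jund between replicates was set against base composition. Its transcript is 67.1% G or C, above 99.7% of 21221 protein-coding genes, whose median is 49.1%. The first 120 coding bases (mm10) show the contrast between Jund (chr8:70699058-70699177, 73.3% G or C, 16 CG pairs), Fos (chr12:85474040-85474159, 61.7%, 10 CG pairs) and Atf3 (chr1:191177351-191177470, minus strand, 53.3%, 2 CG pairs), with each CG pair in capitals.
Jund: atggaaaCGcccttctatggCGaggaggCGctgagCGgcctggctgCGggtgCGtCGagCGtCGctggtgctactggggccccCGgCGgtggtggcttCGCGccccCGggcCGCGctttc
Fos: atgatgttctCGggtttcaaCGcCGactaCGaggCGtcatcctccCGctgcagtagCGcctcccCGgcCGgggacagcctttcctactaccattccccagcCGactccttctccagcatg
Atf3: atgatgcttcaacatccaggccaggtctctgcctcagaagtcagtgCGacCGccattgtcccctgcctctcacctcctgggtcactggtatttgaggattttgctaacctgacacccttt
On the log2 scale, replicate 1 minus replicate 2 of Jund was -4.83 in Myf5 GFP-positive and -4.85 in Myf5 GFP-negative cells. Junb, at 62.6% G or C, differed by -2.96 and -2.32, and Ier2, at 60.9%, by -2.12 and -1.43. Jun, at 55.5%, differed by -1.88 and -1.62, and Egr1, at 57.3%, by -1.01 and -1.14. Fosb, at 56.0%, went up in one group and down in the other (0.59 and -0.71). Fos, at 51.9%, differed by 0.29 and 0.07, and Atf3, at 52.2%, by -0.33 and -0.02. Ier3, at 54.4%, was higher in replicate 1 in both groups (0.35 and 0.77), and Egr2, at 51.4%, differed by -0.41 and 0.17. The medians over all genes fell with GC content: the median difference between replicates was -1.58 and -1.39 in the 2 Myf5 mammary groups at 60% to 65% G or C and -2.79 and -2.94 over the 26 genes above 65%. In the other 4 groups those medians lay between -0.36 and 0.00. Single genes departed from the medians, and some transcripts of lower GC content were also far lower in replicate 1. Whether this difference arose in the cells or in the libraries was not tested, and the tissue results below are given with and without these libraries.

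**Figure D2:**
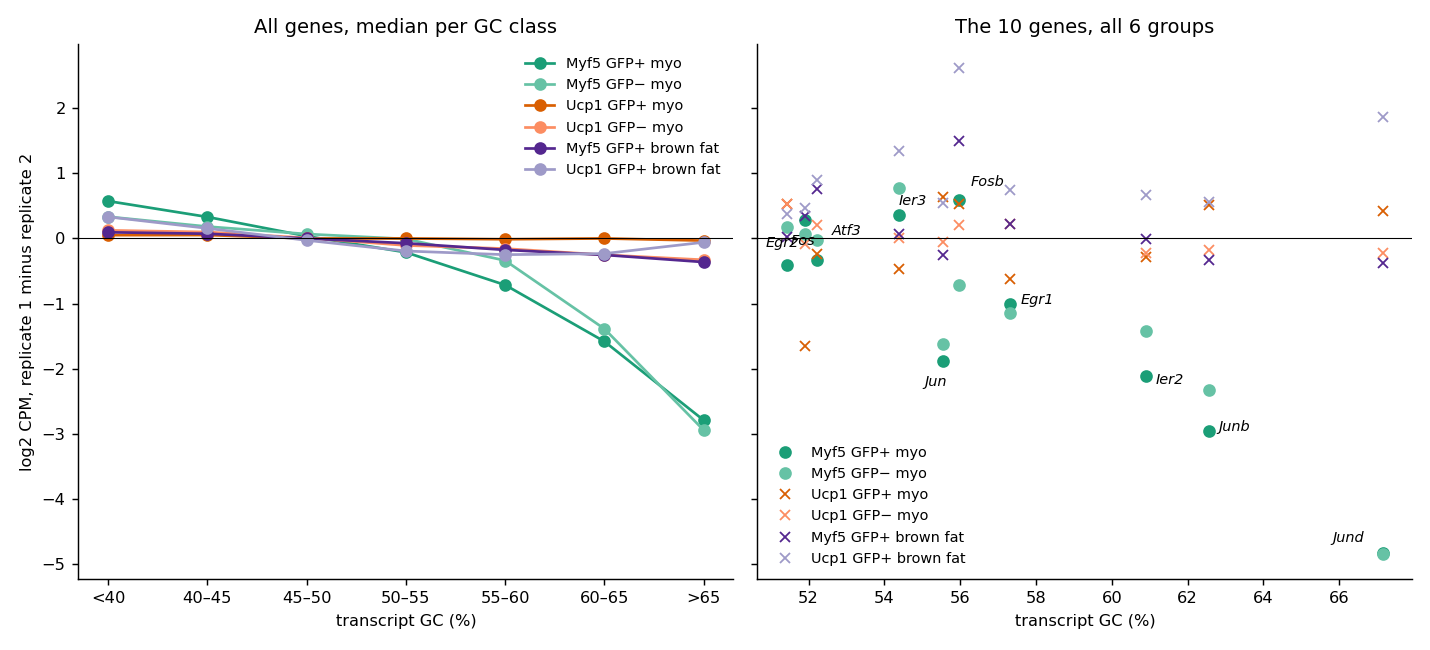
Difference between replicates (log2 CPM, replicate 1 minus replicate 2) against the G and C content of the transcript, as the median of all genes per class for each group (left) and for the 10 genes in all 6 groups (right; circles are the 2 Myf5 mammary groups, crosses the other 4). The 2 Myf5 mammary groups fall to -2.79 and -2.94 in the highest class, and in them Jund and Junb lie lowest among the 10 genes. Next comes Ier2 in Myf5 GFP-positive cells (-2.12) and Jun in Myf5 GFP-negative cells (-1.62).

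Jund also overlaps another gene. Of its 1668 exonic bases, 877 are shared with the antisense gene Gm11175. Gm11175 had 0 counts in all 8 mammary libraries and 2334, 4164, 6908 and 2430 counts in the brown fat libraries, which is 66.02% to 75.5% of the counts of Jund there. Jun shares 232 bases with the antisense gene Junos, which held 0 to 76 counts in mammary libraries and 1405 to 3694 in brown fat. Junb shares 173 bases with Prdx2 on the other strand. Whether the counting of these overlaps changed the levels of Jund, Jun and Junb between tissues was not tested.

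Atf3 (chr1:191170296-191218039, minus strand, 5 merged exons), a stress-induced factor that pairs with Jun proteins and often represses, had a narrow range in mammary cells. It stood at 911 and 1148 CPM in Myf5 GFP-positive and at 991 and 1003 CPM in Myf5 GFP-negative cells. It stood at 1321 and 1563 CPM in Ucp1 GFP-positive and at 1236 and 1070 CPM in Ucp1 GFP-negative cells. Brown fat held 169 and 99.1 CPM in the Myf5 line and 608 and 325 CPM in the Ucp1 line, so that the mammary, Ucp1 brown fat and Myf5 brown fat levels formed 3 tiers with no overlap.

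Egr1 (chr18:34859823-34864984, plus strand, 2 merged exons), the archetypal serum-induced Egr factor, ran from 1356 to 7699 CPM in mammary libraries. Both Ucp1 mammary groups, at 5008 and 7699 CPM and at 6096 and 5235 CPM, lay above both Myf5 mammary groups, at 1635 and 3284 CPM and at 1356 and 2993 CPM. Myf5 brown fat held 300.2 and 256 CPM and Ucp1 brown fat 4444 and 2662 CPM. Egr2 (chr10:67535475-67542188, plus strand, 5 merged exons), better known from myelinating glia and lymphocytes, was far less abundant but followed the tiers of Atf3. It stood at 90.4 to 168 CPM in mammary cells, 51.8 and 39.9 CPM in Ucp1 brown fat, and 8.67 and 8.52 CPM in Myf5 brown fat.

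Ier2 (chr8:84661331-84662852, minus strand, 1 exon), a small nuclear immediate-early protein, stood at 255 and 1110 CPM in Myf5 GFP-positive and at 340 and 916 CPM in Myf5 GFP-negative cells. The 4 Ucp1 mammary libraries held 858 to 1209 CPM, Ucp1 brown fat 1184 and 748 CPM, and Myf5 brown fat 215 and 216 CPM. Ier3 (chr17:35821684-35822923, plus strand, 2 merged exons), known for its part in cell survival under stress, lay between 445 and 824 CPM in every mammary library. It stood at 725 and 285 CPM in Ucp1 brown fat and at 44.8 and 42.6 CPM in Myf5 brown fat.

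Per kilobase of exon, the median over the mammary libraries was highest for Fos (1407 CPM per kb) and Junb (1392), then Jun (999) and Egr1 (925). It was lowest for Fosb (70.8) and Egr2 (37.8). Summed over the 10 genes, the level was 9722 and 20815 CPM in Myf5 GFP-positive cells, 8696 and 16100 in Myf5 GFP-negative cells, 22283 and 23893 in Ucp1 GFP-positive cells and 20753 and 20687 in Ucp1 GFP-negative cells. Brown fat held 2759 and 2899 CPM in the Myf5 line against 16212 and 9926 CPM in the Ucp1 line. As a share of raw counts, without TMM scaling, the 10 genes made up 0.182% and 0.200% in Myf5 brown fat and 0.889% to 2.99% in the other 10 libraries.

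The first comparison asked how GFP-positive mammary cells differ from brown adipocytes of the same line. In the Myf5 line 7 of the 10 genes were higher in mammary cells by the edgeR quasi-likelihood test with Benjamini-Hochberg adjustment over all 16953 genes, against a background of 19.8% of all genes called, 10.9% higher and 8.84% lower. For 9 of the 10 both mammary libraries lay above both brown fat libraries, as they did for 33.1% of all genes. Fosb rose by 5.30 ± 0.96 (log2 fold change ± SE, adjusted p = 0.00612), Egr2 by 4.09 ± 0.47 (adjusted p = 0.00108) and Ier3 by 3.78 ± 0.55 (adjusted p = 0.00253). Junb rose by 3.52 ± 0.99, Egr1 by 3.14 ± 0.58, Fos by 3.02 ± 0.56 and Atf3 by 2.94 ± 0.46. These 6 genes other than Junb were called in every one of 14 alternative analyses each. The call for Junb was lost when replicate 2 of Myf5 GFP-positive cells was left out (1.38), without replicate 1 (3.37) or replicate 2 (3.70) of Myf5 brown fat, with the replicate block (3.26, adjusted p = 0.0528), by limma-voom (0.129) and with only the groups compared (0.0706). It held in 8 of 14 alternatives, with adjusted p from 0.00224 to 0.250. Jun (1.41 ± 0.69), Ier2 (1.67 ± 0.69) and Jund (-0.21 ± 1.46) did not pass the test. The median over the 10 genes was 3.08 and over all genes 0.14. Besides 8 of 10 myoepithelial markers, those of other cell types were called higher in these mammary cells too. These were 6 of 8 fibroblast, 4 of 6 pericyte, 8 of 9 luminal and milk, 2 of 6 endothelial and 2 of 8 leukocyte markers. Their part in the levels of the 10 genes was not tested.

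The same comparison in the Ucp1 line called 3 of the 10 genes, all higher in mammary cells, where 27.8% of all genes were called, 5.34% higher and 22.5% lower. For 6 of the 10 the mammary libraries lay above brown fat with no overlap and for 0 below it, where 16.6% of all genes lay above and 41.1% below. Fosb rose by 3.34 ± 0.87 (adjusted p = 0.0208), Atf3 by 1.63 ± 0.44 (adjusted p = 0.0244) and Egr2 by 1.57 ± 0.42 (adjusted p = 0.0230). Fos (0.24 ± 0.52), Ier3 (0.49 ± 0.49), Egr1 (0.84 ± 0.54) and Ier2 (-0.02 ± 0.67) did not pass it. The median over the 10 genes was 0.77 (1.502 without replicate 1 of Ucp1 brown fat), where that over all genes was -0.69. This comparison rests on the sparse Ucp1 GFP-positive libraries. In an edgeR fit of these 4 libraries alone 0 genes passed, with 4404 at an unadjusted p under 0.05 (adjusted p of 0.108 for Fosb, 0.101 for Egr2 and 0.131 for Atf3), and none of the 10 passed without replicate 2 of Ucp1 brown fat. Without replicate 1 of Ucp1 brown fat (adjusted p = 0.0639) or replicate 1 of the mammary group (0.0599), or with no filter on low counts (0.0506), the call for Egr2 was lost. Without replicate 2 of the mammary group the call for Atf3 was lost.

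**Figure D3:**
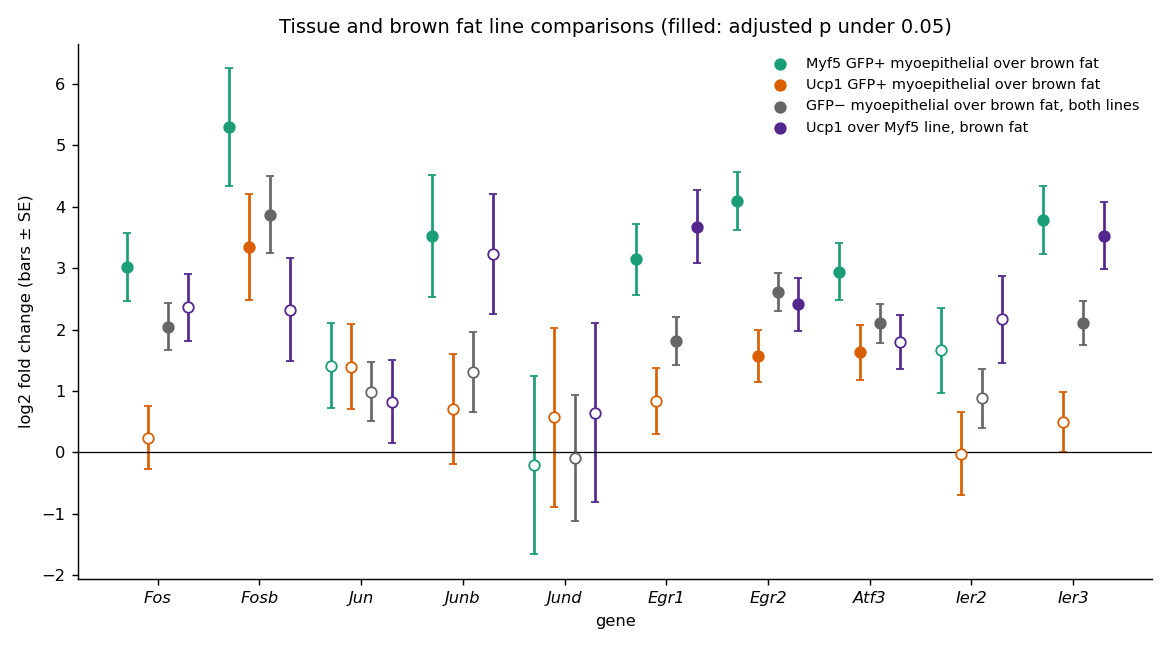
Log2 fold change ± SE of the 10 genes for mammary cells over brown fat in the Myf5 line, in the Ucp1 line and for GFP-negative cells of both lines, and for the Ucp1 over the Myf5 line in brown fat; filled points have an adjusted p under 0.05. Fosb, Egr2 and Atf3 are filled in all 3 tissue comparisons, and Jund lies near 0 with wide bars.

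GFP-negative mammary cells of both lines, 4 libraries against the 4 of brown fat, gave a contrast without the sparse libraries. Those libraries still entered the shared fit of all 12 libraries. Here 6 of the 10 genes were higher in mammary cells, where 26.6% of all genes were called and 14.6% were higher. The libraries did not overlap for 4 of the 10, where 19.4% of all genes were higher with no overlap. Fosb rose by 3.87 ± 0.63, Egr2 by 2.61 ± 0.31, Ier3 by 2.11 ± 0.36, Atf3 by 2.10 ± 0.32, Fos by 2.04 ± 0.38 and Egr1 by 1.82 ± 0.39. Each was called in all 18 alternative analyses, with adjusted p of at most 0.0393. All 6 lack exonic overlap with an opposite-strand gene. For Egr1 and Ier3 the groups nevertheless overlapped, since Ucp1 brown fat reached into the mammary range. Jun (0.99 ± 0.48), Junb (1.31 ± 0.65), Ier2 (0.88 ± 0.48) and Jund (-0.09 ± 1.03) did not pass. Without replicate 1 of both Myf5 mammary groups, Jun (1.23), Junb (1.62) and Ier2 (1.10) passed as well, which made 9 of 10, and 9 of 10 also passed in the Myf5 line, where Jun rose by 2.09 and Ier2 by 2.39. With the GC trend of each library removed, 8 of 10 passed in each of these 2 comparisons. In GFP-negative cells 10 of 10 myoepithelial markers were called higher than in brown fat. So were 9 of 9 luminal and milk, 8 of 8 fibroblast, 5 of 6 endothelial, 4 of 6 pericyte and 3 of 8 leukocyte markers. The luminal and milk markers together held 48872 to 93827 CPM in GFP-negative libraries. The part of other cell types in the levels of the 10 genes was not tested here either.

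The next comparison asked whether brown adipocytes of the 2 lines differ. All 10 genes had a higher fitted level in the Ucp1 line, 8 of them with no overlap between the groups, where 31.3% of all genes were higher and 28.3% lower with no overlap. The test called 3 of the 10 higher, where 1.32% of all genes were called, 1.29% higher and 0.0236% lower: Egr1 by 3.68 ± 0.59 (adjusted p = 0.0288), Ier3 by 3.53 ± 0.54 (adjusted p = 0.0260) and Egr2 by 2.41 ± 0.43 (adjusted p = 0.0368). Junb (3.23 ± 0.98, adjusted p = 0.163), Fos (2.37 ± 0.55, adjusted p = 0.0755) and Atf3 (1.80 ± 0.44, adjusted p = 0.0877) missed the threshold. Fosb and Jund overlapped between the lines. The median over the 10 genes was 2.34 and over all genes 0.00.

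These 3 calls depend on the libraries and the tool. By limma-voom 0 of the 10 genes were called and by DESeq2 6, where 42 and 1486 of all 16953 genes were. In the edgeR test 8 of the 10 had an unadjusted p under 0.05, as had 2213 of all 16953 genes. With replicate 1 or replicate 2 of Myf5 brown fat left out, or replicate 1 of Ucp1 brown fat, none of the 10 was called by edgeR, and without replicate 2 of Ucp1 brown fat the call for Egr2 was lost. Over 13 alternatives the adjusted p ran from 2.12e-08 to 0.170 for Egr1, from 1.34e-07 to 0.170 for Ier3 and from 9.07e-07 to 0.279 for Egr2. The fitted fold changes moved less, from 3.26 to 3.995 for Egr1, 2.71 to 4.05 for Ier3 and 2.22 to 2.59 for Egr2. With the replicate number as a block the adjusted p for Egr2 was 0.0575, and with RLE factors 0.0515.

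In brown fat, marker levels of other cell types differed by line. The 6 endothelial markers together held 11.96 and 316 CPM in the Myf5 line and 3077 and 1510 CPM in the Ucp1 line, with 6 of 6 higher in the Ucp1 line with no overlap, as were 31.3% of all genes. The 6 pericyte markers held 103 and 105 CPM against 574 and 359 CPM, and 8 leukocyte markers held 9.40 and 18.5 CPM against 173 and 54.0 CPM. The 10 brown adipocyte markers held 35552 and 37281 CPM against 18909 and 17672 CPM. By edgeR 0 of 6 endothelial markers were called, with 6 at an unadjusted p under 0.05, where 2213 of all 16953 genes were. The test called 1 of 6 pericyte and 1 of 8 leukocyte markers higher in the Ucp1 line, and 1 of 10 brown adipocyte markers lower. Among all genes 1.29% were called higher and 0.0236% lower. Mitochondrial genes took 23.9% and 21.4% of counts in the Myf5 line and 36.0% and 12.6% in the Ucp1 line. The part of these differences in the levels of the 10 genes was not tested.

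**Figure D4:**
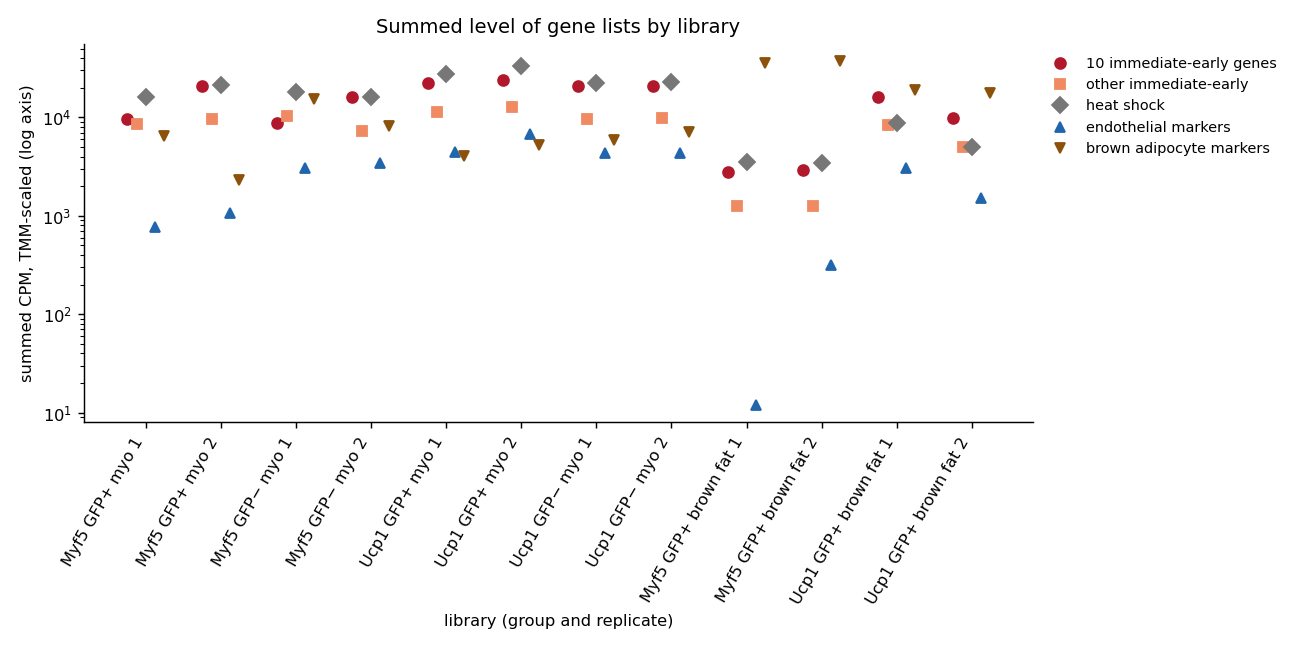
Summed TMM-scaled CPM (log axis) of the 10 genes, of 20 other immediate-early genes, of 14 heat shock genes, of 6 endothelial markers and of 10 brown adipocyte markers in each of the 12 libraries. The 2 Myf5 brown fat libraries are lowest for the immediate-early, heat shock and endothelial lists and highest for brown adipocyte markers.

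Whether the difference between mammary cells and brown fat itself differed between lines was tested as the Myf5 effect minus the Ucp1 effect. The test called 3 of the 10 genes, all with the larger effect in the Myf5 line, where 13.2% of all genes were called in either direction and 12.4% in this one. Ier3 differed by 3.29 ± 0.71 (adjusted p = 0.0150), Fos by 2.78 ± 0.75 (adjusted p = 0.0384) and Egr2 by 2.52 ± 0.59 (adjusted p = 0.0211). The median over all genes was 1.05 and over the 10 genes 2.13. The contrast shares its brown fat libraries with the comparison of lines above and is no separate evidence for it. No call remained among the 10 genes without either library of Myf5 brown fat. The call for Fos was lost with the replicate number as a block (adjusted p = 0.0582), and also without replicate 1 of Ucp1 brown fat, replicate 1 of Ucp1 GFP-positive cells or either library of Myf5 GFP-positive cells. The call for Egr2 was lost without replicate 1 of Ucp1 brown fat or replicate 2 of Myf5 GFP-positive cells. Adjusted p ran from 0.000394 to 0.0613 for Ier3, from 0.00505 to 0.117 for Fos and from 9.85e-05 to 0.113 for Egr2 over 16 alternatives.

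Within the mammary gland, GFP-positive cells were set against GFP-negative cells of the same gate. In the Myf5 line none of the 10 genes passed, and 0% of all genes were called by edgeR, against 724 genes by DESeq2 and 567 by limma-voom. At an unadjusted p under 0.05 there were 1573 genes in all and 0 of the 10, and neither DESeq2 nor limma-voom called any of the 10. Estimates ran from near 0 for Ier3 to 0.20 for Jun in 9 of the 10 genes, with SE between 0.41 for Egr2 and 1.45 for Jund. Junb was the exception at 0.96 ± 0.91, and turned to -1.18 without replicate 2 of the GFP-positive cells. All 10 genes overlapped between the groups, where 14.5% of all genes were higher and 20.2% lower with no overlap. Deviations of same-numbered libraries of these groups correlated at r = 0.622 across 9022 genes, so the overlap of unpaired groups says little. In same-numbered libraries Fos, Jun, Junb, Jund and Egr1 were higher in GFP-positive cells in both replicates. The direction differed between replicates for Fosb, Egr2, Atf3, Ier2 and Ier3. For Jun the gap in replicate 1 was only 1105 against 1102 CPM. The share of all genes that were higher in this way was not counted, so no conclusion is drawn from it. With a block on the number within each line 0 of the 10 genes passed.

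In the Ucp1 line none of the 10 genes was called either, where 14.3% of all genes were, 0.277% higher and 14% lower in GFP-positive cells. None had an unadjusted p under 0.05, and DESeq2 and limma-voom called 0. Fos was 0.97 ± 0.52 lower (log2 -0.97, adjusted p = 0.250), with both GFP-positive libraries under both GFP-negative ones. Without replicate 2 of the GFP-positive cells, Fos passed at -2.04 with adjusted p = 0.0352, the only such case in 14 alternatives, whose adjusted p reached 0.642. Fosb, Jun, Junb, Jund and Atf3 were higher with no overlap (0.32 to 0.81), where 11.8% of all genes were higher and 48.1% lower with no overlap. The median over the 10 genes was 0.31 and over all genes -0.69. No member passed the test of the difference in GFP effect between the lines, where 11% of all genes were called, 0.283% higher and 10.7% lower. None of the 10 had an unadjusted p under 0.05 there, and DESeq2 and limma-voom called 0.

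**Figure D5:**
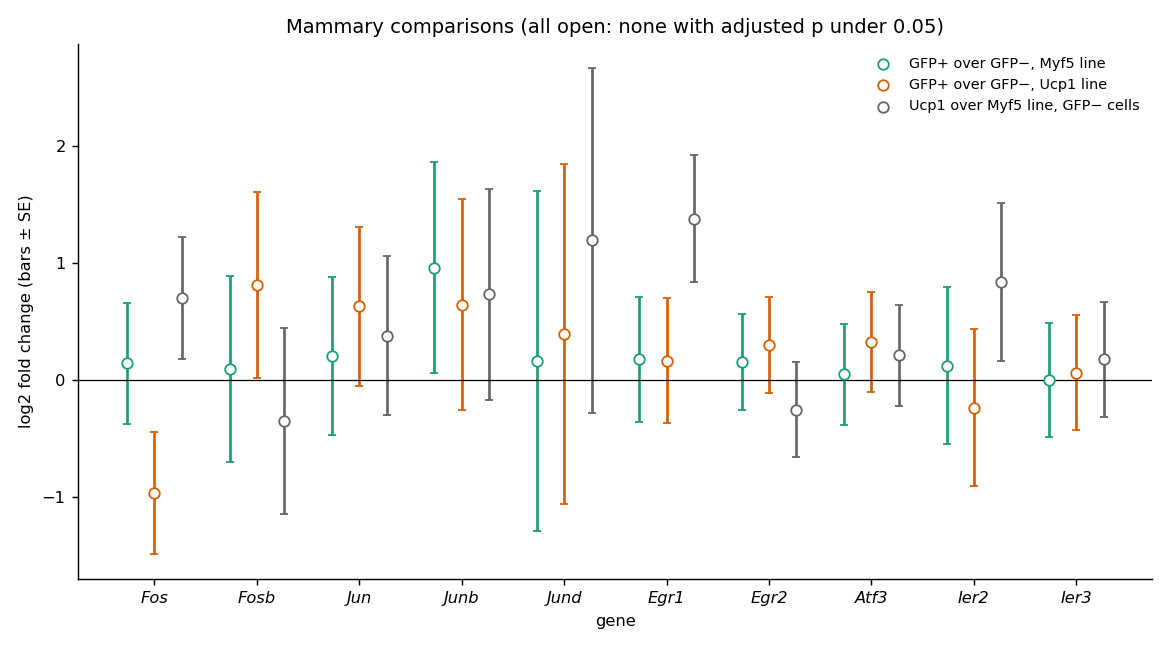
Log2 fold change ± SE of the 10 genes for GFP-positive over GFP-negative mammary cells in each line and for the Ucp1 over the Myf5 line in GFP-negative cells; open points have an adjusted p above 0.05. Fos in the Ucp1 line (-0.97) and Egr1 between lines (1.38) lie farthest from 0 relative to their bars.

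GFP-negative mammary cells of the 2 lines were the last comparison. By edgeR 0 of the 10 genes and 0% of all genes were called, by limma-voom and DESeq2 0 of the 10, and by DESeq2 43 genes in all. At an unadjusted p under 0.05 there were 604 genes, Egr1 alone among the 10. Egr1 was 1.38 ± 0.54 higher in the Ucp1 line by the edgeR test (adjusted p = 1), with no overlap. Fos, Jund, Egr1, Atf3 and Ier2 were higher in the Ucp1 line with no overlap, where 30.4% of all genes were. The Myf5 group of this comparison includes a GC-depleted replicate 1, and with the GC trend removed the difference of Egr1 was 1.07. Without both Myf5 mammary replicate 1 libraries it was 0.80, the lowest of 14 alternatives, and the median over the 10 genes was 0.10 in place of 0.54.

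Other genes of the response were counted from lists. Of 20 other immediate-early genes, 13 rose in Myf5 mammary cells over brown fat, 12 in GFP-negative cells and 5 in the Ucp1 line, and none fell. Among all genes 10.9%, 14.6% and 5.34% were called higher in these comparisons and 8.84%, 12% and 22.5% lower. Nr4a1, an orphan nuclear receptor, rose by 4.28 ± 0.61 in the Myf5 line, 2.49 ± 0.40 in GFP-negative cells and 2.01 ± 0.55 in the Ucp1 line. Klf4, a Krüppel-like factor, rose by 5.33 ± 0.84 in the Myf5 line. The list's medians were 2.95, 2.16 and 1.16, against 0.14, 0.35 and -0.69 over all genes.

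Of 12 further AP-1 partners, 2, 3 and 2 rose in those comparisons, to be read against those shares. Fosl2, a Fos-related subunit, rose by 4.16 ± 0.59, 2.54 ± 0.39 and 1.80 ± 0.53. Mafk, a small Maf protein, rose by 3.20 ± 0.57, 1.78 ± 0.38 and 1.79 ± 0.54. Of 20 feedback regulators, 8, 10 and 4 rose and 0, 1 and 1 fell. In the Ucp1 line the one that fell was Dusp4, a MAP kinase phosphatase, at 0 counts in both sparse mammary libraries. Nfkbia, the inhibitor of NF-kB, stood at 4004 ± 155 CPM (SD, n = 2) in Myf5 GFP-positive cells and 102 ± 13.9 CPM in Myf5 brown fat. Of 21 upstream kinases and serum response factor partners, 0, 2 and 1 rose and 0, 0 and 3 fell, at or below the shares of all genes.

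Between the brown fat lines, Ccn1 (3.02 ± 0.44), Sgk1 (4.45 ± 0.84) and Klf4 (4.10 ± 0.79) were the called members of the 20 other immediate-early genes, and Nfkbia (3.11 ± 0.57) and Zfp36, an mRNA decay factor at 1672 ± 429 against 209 ± 9.32 CPM (SD, n = 2), those of the feedback list. All 5 were higher in the Ucp1 line, where 1.29% of all genes were called higher. None of the AP-1 partners or upstream genes was called there by edgeR. At an unadjusted p under 0.05 there were 6 of 12 and 2 of 21, and 2213 of all 16953 genes. The medians were 2.22 for other immediate-early genes, 1.86 for feedback regulators, 1.69 for AP-1 partners and 0.34 for upstream genes, against 0.00 over all genes.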

How the data were processed

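Bulk RNA-seq libraries (12, in 6 groups with 2 each) had been made from sorted mouse cells. The authors deposited raw read counts per Ensembl gene, 1 file per library. Per the submitters' processing notes, TopHat, HTSeq and DESeq2 were used with mm10. For versions, annotation release and strand setting, the entry is: not given in the sources used here. Per the labels' protocols, RNA was extracted with an RNeasy Micro kit and amplified with SMART-Seq v4. Amplified reads are not independent molecules, so a count's own error is a lower limit. Totals ran from 11027738 to 32956480 counts per library, and 37607 genes received a symbol.

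Counts were joined (38924 genes) and named from GENCODE M21 with Python 3.11.15, pandas 2.3.3 and numpy 2.4.6, and drawn with matplotlib 3.10.9. Tests used R 4.3.3: edgeR 4.0.16 quasi-likelihood with TMM factors, filterByExpr (minimum count 10), all 12 libraries in 1 fit with a mean per group, and Benjamini-Hochberg adjustment at 0.05 over 16953 genes. The SE is the log2 fold change over the square root of F. Alternatives were RLE factors, DESeq2 1.42.0, limma 3.58.1 (voom), no filter, a replicate block, fits without the Ucp1 GFP-positive mammary libraries, on only the groups compared, or without mitochondrial and milk genes, and each library left out. Where that left 1 library in a group, it was assumed to vary like the other groups. Chosen after seeing the data were removal of each library's GC trend (loess over genes of at least 10 CPM, span 0.4), a block within each line, leaving out both Myf5 mammary replicate 1 libraries, the count of genes nested in opposite-strand genes, and the tissue difference between lines. The tests were also run on simulated counts that lacked the GC and strand differences and the sparse libraries described above. No result here rests on that run. The 10 genes, the 5 pathway lists and the 7 marker lists were chosen with earlier results of these data known. From each pathway list, up to 4 called genes of smallest adjusted p were named. With none called, the 2 genes with the greatest mean CPM were taken.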

Additional observations from a re-analysis of the deposited data

Results flagged for a closer look

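Of the 10 genes, 3 had a difference between mammary cells and brown fat that was larger in the Myf5 line than in the Ucp1 line, by a test of the difference itself (edgeR quasi-likelihood, Benjamini-Hochberg) that called 12.4% of all genes in this direction. The log2 difference was 2.78 for Fos, 2.52 for Egr2 and 3.29 for Ier3. Each of the 3 was lower in both Myf5 brown fat libraries than in both Ucp1 brown fat libraries, and the contrast contains those 4 libraries. Without either library of Myf5 brown fat, or with only the groups compared, 0 of the 10 were called, and by limma-voom 1 was.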

How the results depend on the processing

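Groups of 2 libraries limit every test here. Over the alternatives, 697 values of single genes (all 10 in the tissue and brown fat comparisons, only Junb, Fos, Fos and Egr1 in the Myf5 and Ucp1 GFP effects, their difference and the GFP-negative lines) kept direction and side of the threshold, 49 lost a call, 22 gained one and 24 changed sign. The cause was not tested. With DESeq2 the genes called were 724 (Myf5 GFP effect), 4152 (Ucp1 GFP effect), 3096 (difference of GFP effects), 5618 (Myf5 tissue), 4098 (tissue difference), 43 (GFP-negative lines) and 1486 (brown fat lines, 6 of the 10). With limma-voom they were 567 (Myf5 GFP effect), 5146 (Ucp1 GFP effect) and 42 (brown fat lines, 0 of the 10), and 1 of the 10 passed for the tissue difference. RLE factors gave 135 for the brown fat lines. Without the Ucp1 GFP-positive mammary libraries the counts were 232 (Myf5 GFP effect), 6199 (Myf5 tissue), 6886 (GFP-negative tissue) and 929 (brown fat lines). With only the groups compared they were 1187 (difference of GFP effects), 0 genes and 0 of the 10 (Ucp1 tissue), 1083 genes and 0 of the 10 (tissue difference), 8226 (GFP-negative tissue) and 755 (brown fat lines). Without both Myf5 mammary replicate 1 libraries 1536 genes passed for Myf5 tissue. With the GC trend removed 6 of the 10 passed for the tissue difference and 5 for the brown fat lines. Leaving out 1 library at a time gave 0 to 0 genes (Myf5 GFP effect and GFP-negative lines), 1293 to 4165 with 0 to 1 of the 10 (Ucp1 GFP effect), 949 to 3740 (difference of GFP effects), 1163 to 2524 with 6 to 8 (Myf5 tissue), 2194 to 6400 with 0 to 2 (Ucp1 tissue), 1020 to 4500 with 0 to 3 (tissue difference), 2008 to 2947 with 6 to 6 (GFP-negative tissue) and 0 to 349 with 0 to 2 (brown fat lines). Signs changed for Junb in the Myf5 GFP effect (log2 -1.18 to 2.55 over single libraries left out) and for Jund in Myf5 tissue (-4.14 to 0.76, also 0.76 without both replicate 1 libraries and 0.25 with the GC trend removed). In Ucp1 tissue the ranges over single libraries left out were -0.81 to 0.84 for Fos, -0.076 to 1.78 for Jund, -0.027 to 1.31 for Ier3 and -0.32 to 0.34 for Ier2, which was 0.11 without mammary replicate 1 and 0.036 by limma-voom. For the tissue difference they were -1.21 to 0.72 for Jun, which was -0.14 by RLE, DESeq2 and limma-voom, and -4.71 to 0.22 for Jund. For Jund they were -2.07 to 0.52 in GFP-negative tissue, with 0.33 without both replicate 1 libraries, and -0.56 to 1.29 in the brown fat lines.

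The labels give the groups shared replicate numbers without saying what a number marks. Deviations of same-numbered libraries correlated across 9022 genes at 0.622 for the 2 Myf5 mammary groups, 0.140 and 0.0358 for GFP-positive mammary cells and brown fat of the Myf5 and Ucp1 lines, 0.0857 for the 2 Ucp1 mammary groups, -0.135 for the GFP-negative groups and -0.182 for the brown fat groups, so mainly the 2 Myf5 mammary groups deviated together. No label ties same-numbered libraries, and the numbers were not taken as pairs. With the replicate block, 1853 genes (Ucp1 GFP effect), 1516 (difference of GFP effects), 2635 (Myf5 tissue, 6 of the 10), 3802 (Ucp1 tissue, 3), 1857 (tissue difference, 2, with Jun at -0.095), 3863 (GFP-negative tissue, 6) and 76 (brown fat lines, 2) passed, and 0 in the other 2 comparisons. With a block within each line, 1601 genes passed for the Ucp1 GFP effect and 1191 for the difference, and 1581 and 1196 with the GC trend also removed.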

Other observations

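Heat shock genes, another group that responds to handling, were counted beside the immediate-early genes. Of 14, 5 were higher and 1 lower in Myf5 mammary cells than in Myf5 brown fat, 7 higher and 1 lower in GFP-negative cells of both lines, and 5 higher and 1 lower in the Ucp1 line. Among all genes 10.9%, 14.6% and 5.34% were called higher in these comparisons and 8.84%, 12% and 22.5% lower. Hspa8, the constitutive Hsp70 chaperone, stood at 6055 ± 43.7 CPM (SD, n = 2) in Myf5 GFP-positive cells and at 93.2 ± 3.05 CPM in Myf5 brown fat, a log2 fold change of 6.02 ± 0.56. Hspa1a, the inducible form, was higher in Ucp1 than in Myf5 brown fat by 3.30 ± 0.63 (edgeR adjusted p = 0.0425), at 1708 ± 691 against 174 ± 13.1 CPM, and it was the only heat shock gene called there. Between the brown fat lines 1.29% of all genes were called higher. Calls in that comparison depended on the libraries and the tool, as described above. Together the 14 genes held 3494 and 3425 CPM in Myf5 brown fat, 8821 and 5011 CPM in Ucp1 brown fat and 15970 to 33306 CPM in mammary libraries.

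Genes were also ranked by how closely their log2(CPM + 1) followed the mean of the 10 over the 12 libraries, among 8881 genes. Rap1b (r = 0.977), Mafk (r = 0.975), Atp8b1, Hspa1a, Kazn, Hes1, Tmem123 and Stim2 came first, with r of at least 0.965. Rap1b is a small GTPase with a transcript of 39.9% G or C. It stood at 278 and 462 CPM in Myf5 GFP-positive cells, with a median of 465 CPM in mammary libraries and 148 CPM in brown fat. For Egr1 alone the closest were Hspa1a (r = 0.984), Ets2 (0.972) and Lmo2 (0.970). For Jund alone they were Pitpna (r = 0.962), Zfp384 (0.941) and Dnaja4 (0.938). These 3 transcripts have 48.5%, 53.4% and 49.8% G or C. All 3 were low in replicate 1 of both Myf5 mammary groups, as Jund was: Pitpna stood at 38.7 and 28.6 CPM there against 213 and 168 CPM in replicate 2. The 12 libraries share groups and depth, so these correlations describe the libraries only.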
